A study of Solanum lycopersicum with 3 samples.

Results

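Regulators of leaflet boundaries and leaf margins were followed in young leaves of a tomato (Solanum lycopersicum) auxin-response mutant. The rule named 6 genes by their locus identifiers: GOBLET (Solyc07g062840), LYRATE (Solyc05g009380), CLAUSA (Solyc04g008480), POTATO LEAF (Solyc06g074910), BLIND (Solyc11g069030) and LATERAL SUPPRESSOR (Solyc07g066250). Of these, 5 have a row among the 21717 loci of the deposited table. BLIND has no row there and was not analysed here. All 3 libraries belong to 1 group of slmp-1 plants, mutants in SlMP, the tomato counterpart of the auxin response factor MONOPTEROS. Each library pooled 15 primordia of leaf 5 at the P5 stage, in which the number gives a leaf's age in plastochrons (the time from one new leaf to the next). Seedlings grew in a cycle of 18 h light to 6 h dark and were sprayed with water 1 h before sampling, which the labels call mock. No other genotype or treatment was analysed here, so the values are levels in the mutant and not changes caused by it. The labels do not say what the slmp-1 lesion is, and SlMP was not analysed here, for want of a source that ties the name to a locus.

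A tomato leaf is compound: leaflets arise one after another along the margin of the primordium, and narrow strips of slowly growing cells separate each leaflet from the next. GOBLET, a NAC-domain transcription factor of the CUP-SHAPED COTYLEDON class that is restricted by the microRNA miR164, marks those boundaries. LYRATE, a zinc-finger protein related to JAGGED of Arabidopsis, acts in leaflet and margin outgrowth. CLAUSA is a MYB transcription factor whose loss gives leaves with more leaflets. POTATO LEAF and BLIND are related MYB proteins; plants without POTATO LEAF make fewer leaflets, and plants without BLIND lack many side shoots. LATERAL SUPPRESSOR is a GRAS-family protein needed to start axillary meristems in leaf axils.

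QuantSeq libraries sample polyadenylated transcripts at the 3′ end only, so a transcript gives about the same number of fragments whatever its length and levels of different genes are set side by side without dividing by length. Values are read counts per locus divided by 1 factor per library, called scaled values. The count behind a value was recovered as a whole number of steps, 1 step being the worth of 1 read. Loci summed to 2746410, 2574146 and 2499843 steps in replicates 1, 2 and 3. A value of 1 step occurred at 0 loci in every library, so a listed 0 may stand for 0 or 1 read. Nothing in the labels says that the pools came from separate batches of plants, so the SD measures the spread between these libraries, which may be technical.

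The 5 genes fell into a detected set and a pair near the limit of the depth. CLAUSA, GOBLET and LYRATE reached at least 10 scaled units in each library, the level taken as detection, and LATERAL SUPPRESSOR and POTATO LEAF did not. Detection was thus met by 3 of the 5 genes, while 68.7% of all listed loci met it. The same 3 genes were above the median locus of the table, which had a mean of 33.3 scaled units. Here and below, all loci means the 21717 with a row, of which 31 were at 0 in every library. Loci without a row, such as BLIND, are not counted in the median, the shares or the ranks. The other 2 had means of 5 or less, as did 13.3% of all loci. The primordia were sampled whole, so fewer cells using a gene and less RNA per cell cannot be told apart.

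**Figure D1:**
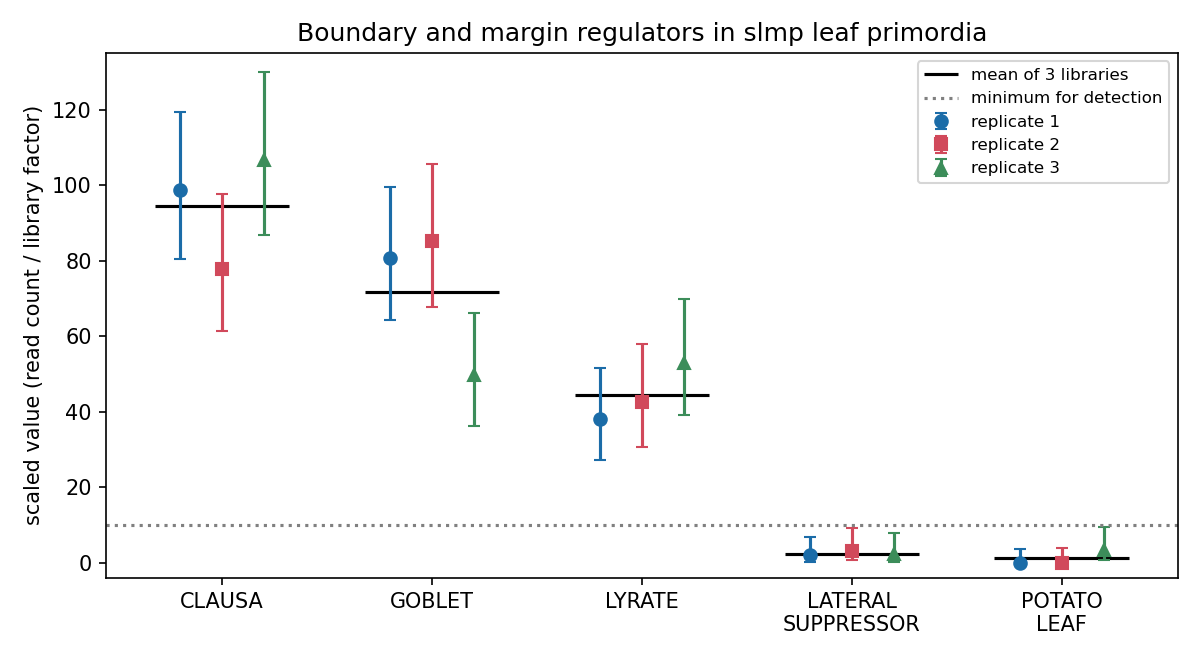
Scaled value of each gene (vertical axis, read count divided by the library's factor) in replicates 1, 2 and 3, drawn as points; vertical bars are 95% exact Poisson intervals of the read count, the short black line is the mean, and the dotted line is the minimum of 10 for detection. CLAUSA, GOBLET and LYRATE lie between 37.9 and 106.7 in every library, and LATERAL SUPPRESSOR and POTATO LEAF lie at 3.23 or less.

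CLAUSA was the highest of the 5 genes. Its scaled values were 98.6, 77.9 and 106.7 in replicates 1, 2 and 3, from 104, 75 and 99 steps. Replicate 2 was the lowest and the other libraries were close to each other. The mean was 94.4 ± 14.8 (SD, n = 3), which is 2.83 times the median locus and above 76.5% of all loci. Its exact Poisson 95% intervals overlapped in all libraries, the lowest running from 61.3 to 97.6 scaled units and the highest from 86.7 to 129.9.

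GOBLET, the boundary gene, had scaled values of 80.6, 85.2 and 49.6 in replicates 1, 2 and 3, from 85, 82 and 46 steps. Replicates 1 and 2 were alike and replicate 3 was low. The mean was 71.8 ± 19.4 (SD, n = 3), or 2.15 times the median locus and above 70.0% of all loci. The exact Poisson 95% interval in replicate 3 ran from 36.3 to 66.1 scaled units, which overlaps that of replicate 1 (64.4 to 99.6) and lies below that of replicate 2 (67.7 to 105.7). Such intervals cover the counting error of reads only. Where reads are PCR copies and not independent molecules, the intervals are too narrow.

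LYRATE, the margin gene, had scaled values of 37.9, 42.6 and 52.8 in replicates 1, 2 and 3, from 40, 41 and 49 steps. Its Poisson intervals overlapped in all libraries, the lowest running from 27.1 to 51.6 and the highest from 39.1 to 69.8. The mean was 44.4 ± 7.61 (SD, n = 3), or 1.33 times the median locus and above 57.6% of all loci.

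LATERAL SUPPRESSOR, the axillary meristem gene, was found at 1.90, 3.12 and 2.15 scaled units, from 2, 3 and 2 steps. All libraries were low and similar, with a mean of 2.39 ± 0.643 (SD, n = 3), above 4.73% of all loci. With 7 steps in all, the precision is poor: the interval in replicate 2, the highest, ran from 0.643 to 9.11 scaled units.

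POTATO LEAF was listed at 0 in replicates 1 and 2 and at 3.23 scaled units, or 3 steps, in replicate 3. It averaged 1.08 ± 1.87 (SD, n = 3), and 1.74 if each listed 0 stood for 1 read. At this depth a true count of 0 allows up to 2.84 scaled units in replicate 1 and 3.12 in replicate 2, the worth of 3 reads, and the exact two-sided intervals drawn for these zeros end at 3.50 and 3.83. A listed 0 that stood for 1 read would allow more. Above 0 in each library were 4 of the 5 genes, POTATO LEAF being the exception, against 91.1% of all loci. The next locus in identifier order, Solyc06g074920, had the same 0, 0 and 3 steps, a pattern that, in any order of libraries, 0.387% of the table's loci have. Only loci of very low mean can have it, and 13.3% of all loci had means of 5 or less. The share among loci as low as POTATO LEAF was not computed. Whether POTATO LEAF and Solyc06g074920 share reads was not tested.

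**Figure D2:**
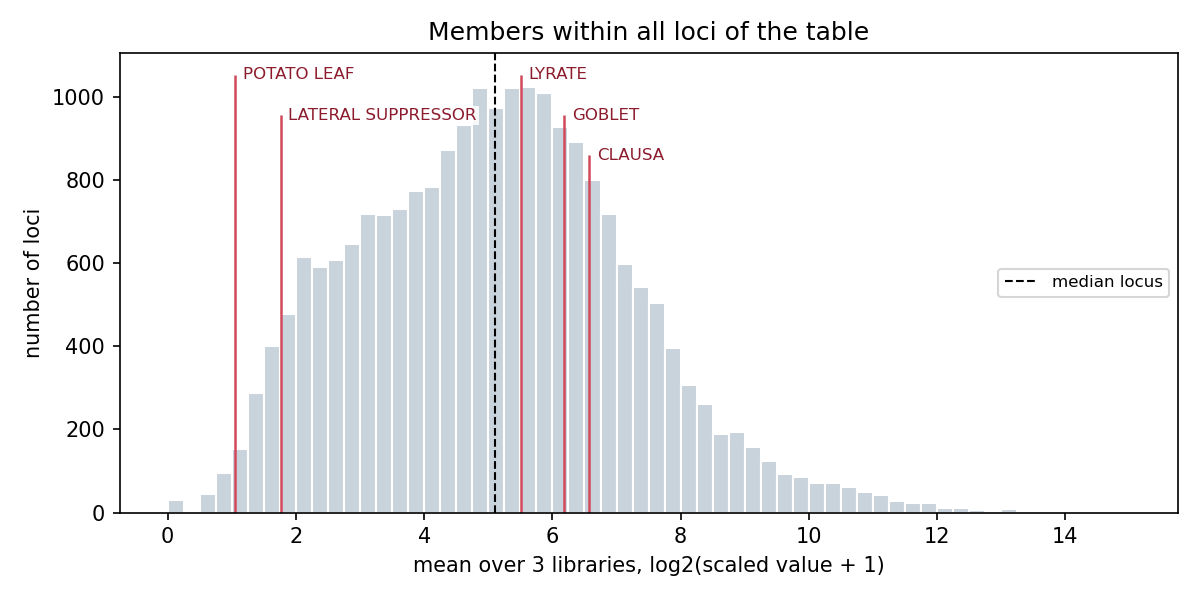
Histogram of the mean over the 3 libraries for all 21717 loci on the log2(scaled value + 1) scale (horizontal axis), with the number of loci on the vertical axis; red lines mark the 5 genes and the dashed line the median locus. CLAUSA, GOBLET and LYRATE lie to the right of the median locus at 33.3 scaled units, while LATERAL SUPPRESSOR and POTATO LEAF lie in the left tail.

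The order of the levels was CLAUSA, GOBLET, LYRATE, LATERAL SUPPRESSOR and POTATO LEAF by mean, and how many neighbours in that order were separated depended on the libraries used. Of the 4 neighbouring pairs, 3 had overlapping ranges over all libraries, 2 without replicate 2 and 1 without replicate 3, where fewer values also narrow the ranges. An exact two-sided permutation test of 3 values against 3 cannot go below 0.1, so no test was run between genes. CLAUSA exceeded GOBLET by 0.42 ± 0.62 on the log2(value + 1) scale (mean and SD of the within-library difference, n = 3), with differences of 0.29, -0.13 and 1.09 in replicates 1, 2 and 3. GOBLET exceeded LYRATE by 0.65 ± 0.65 on that scale, with differences of 1.07, 0.98 and -0.09. Each of these differences had its sign turned in 1 library, replicate 2 for the first pair and replicate 3 for the second.

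CLAUSA and LYRATE, which are not neighbours in the order, were separated in every library. CLAUSA was 2.60, 1.83 and 2.02 times as high as LYRATE in replicates 1, 2 and 3, and its lowest value of 77.9 lay above LYRATE's highest of 52.8. The log2 difference was 1.07 ± 0.26 (SD, n = 3), and CLAUSA was higher in 3 of 3 libraries.

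The gap in the set lay between LYRATE and LATERAL SUPPRESSOR. LYRATE had 130 steps over the 3 libraries and LATERAL SUPPRESSOR had 7, a ratio of 18.6 with a 95% counting interval of 8.76 to 47.1 (exact Clopper-Pearson, counting error of reads only). LYRATE was higher in 3 of 3 libraries, with a log2 difference of 3.75 ± 0.34 (SD, n = 3). LATERAL SUPPRESSOR and POTATO LEAF were not separated: 7 steps against 3 gave a ratio of 2.33 with a counting interval of 0.533 to 13.98.

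Within single libraries the order changed. Replicate 1 had the order of the means. In replicate 2 GOBLET was above CLAUSA, with 82 against 75 steps. In replicate 3 LYRATE was above GOBLET, with 49 against 46 steps, and POTATO LEAF above LATERAL SUPPRESSOR, with 3 against 2. The Poisson intervals overlapped in each of these pairs, so the changes of order are not set apart from counting error. The 5 genes together had 218.9, 208.8 and 214.4 scaled units in replicates 1, 2 and 3, a sum of 214.0 ± 5.10 (SD, n = 3).

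**Figure D3:**
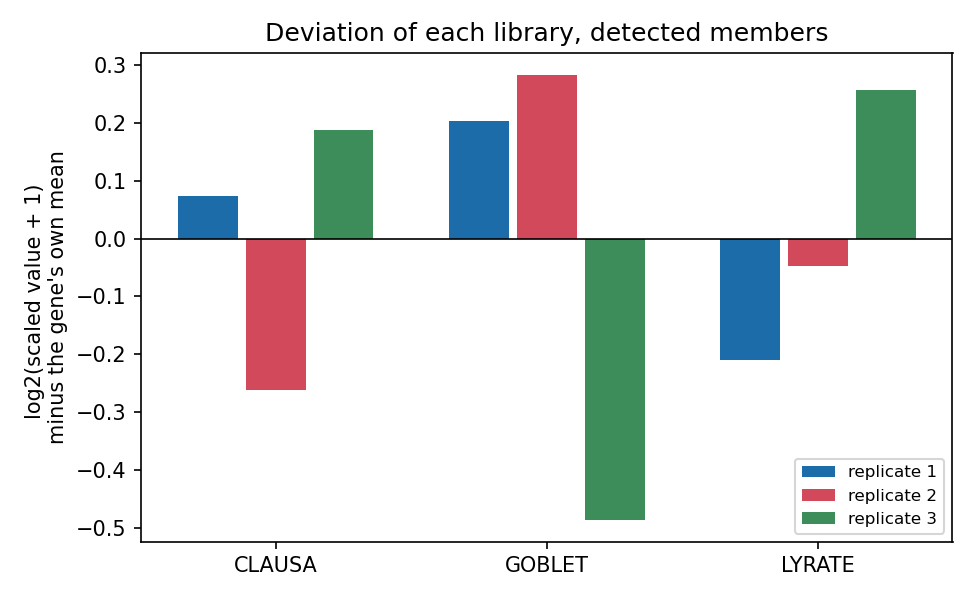
Log2(scaled value + 1) in each library minus the gene's own mean over the 3 libraries (vertical axis, log2 units), as bars for the 3 genes detected in each library. Replicate 3 was the lowest library for GOBLET, at -0.49, and the highest for CLAUSA and LYRATE, at 0.19 and 0.26.

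The detected genes did not deviate alike. Relative to its own mean on the log2 scale, GOBLET stood at 0.20, 0.28 and -0.49 in replicates 1, 2 and 3. CLAUSA stood at 0.07, -0.26 and 0.19, and LYRATE at -0.21, -0.05 and 0.26. GOBLET was therefore lowest in the library where CLAUSA and LYRATE were highest. The Poisson intervals of CLAUSA overlapped in all libraries, as did those of LYRATE, so their highest library is not set apart from counting error. The share of loci with such an opposite order was not computed. In replicate 3 GOBLET lay at least 1.5-fold below both remaining libraries. The fold, the library and the direction were taken after its values were seen. Of the 13579 loci whose mean was at least 20, 6.8% were that far down in replicate 3, and among the 4244 detected loci within 1.5-fold of GOBLET's level, 7.05% were. These shares count low values in replicate 3 alone. A share over any library and either direction would be at least as large and was not computed.

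GOBLET had the widest spread of the detected genes over the 3 libraries, a rank that rests on replicate 3. Its SD of log2(value + 1) was 0.42, against a median of 0.26 over detected loci of like level, of which 78.3% had a smaller SD. LYRATE had 0.24 against 0.29 for loci of its level, and CLAUSA 0.23 against 0.25. The coefficient of variation was 2.27 times what Poisson counting of reads alone gives for GOBLET, 1.51 times for CLAUSA and 1.13 times for LYRATE. The median SD of the 3 detected genes was 0.24 and that of all detected loci 0.27; without replicate 3 the median of the 3 genes was 0.12. The single SDs without replicate 3 were 0.06 for GOBLET, 0.12 for LYRATE and 0.24 for CLAUSA, so GOBLET was then the narrowest.

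**Figure D4:**
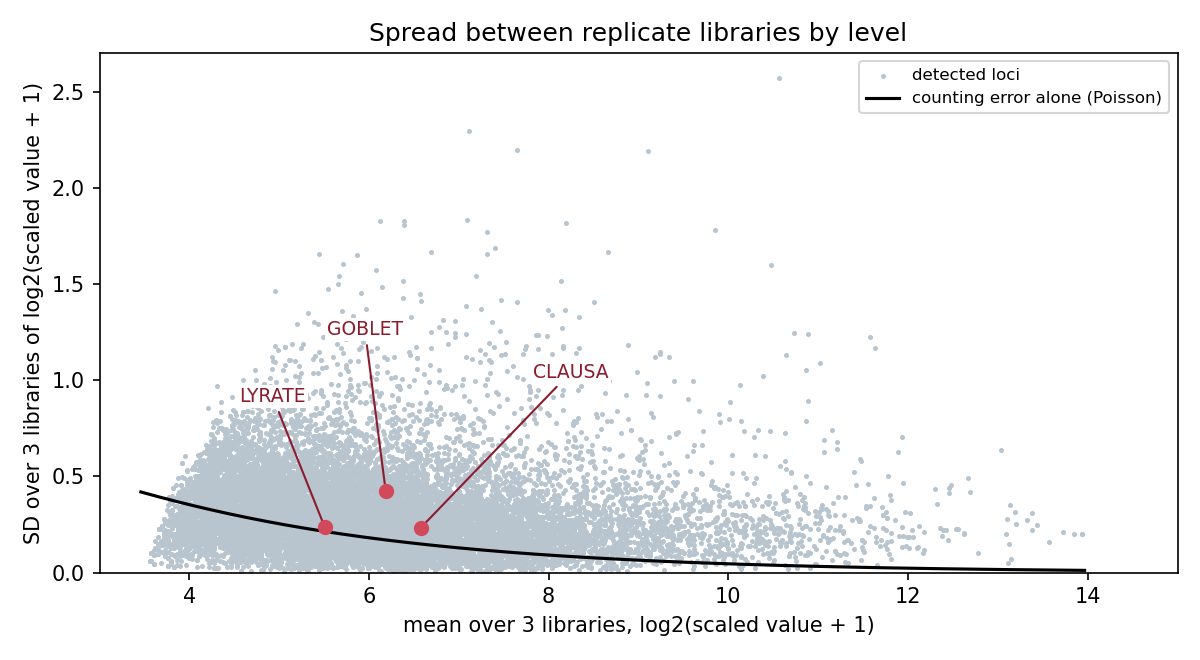
SD over the 3 libraries of log2(scaled value + 1) (vertical axis) against the mean over the libraries on the log2(scaled value + 1) scale (horizontal axis); grey points are loci with at least 10 scaled units in each library, red points the 3 detected genes, and the black line the SD that Poisson counting alone gives. LYRATE, at 0.24, lies near the line, and GOBLET, at 0.42, lies well above it.

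By likeness of values, measured as the Euclidean distance of log2(value + 1) over the 3 libraries, CLAUSA and GOBLET were each other's closest gene among the 5, at 1.13. LYRATE was closest to GOBLET at 1.45, and POTATO LEAF and LATERAL SUPPRESSOR to each other at 2.59. Within the whole table, 3373 loci were closer to GOBLET than CLAUSA was, and 5777 loci were closer to LYRATE than GOBLET was. With 3 libraries of 1 group this distance reflects mostly the level.

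Levels of the loci beside each gene in identifier order ranged widely. The loci before and after GOBLET had means of 9.77 ± 4.10 (Solyc07g062820) and 103.8 ± 14.4 (Solyc07g062860; SD, n = 3 each). Solyc07g062820 was lowest in replicate 3, as GOBLET was, at 10.4, 13.5 and 5.39 in replicates 1, 2 and 3 (11, 13 and 5 steps). Solyc07g062860 was not low there, at 87.2, 113.2 and 111.0 in the same order. Both loci beside CLAUSA and Solyc05g009370 beside LYRATE were also lowest in replicate 3, where CLAUSA and LYRATE themselves were highest. Solyc05g009390, on LYRATE's other side, was not. A lowest value in replicate 3 was therefore not particular to loci near GOBLET. LYRATE lies between Solyc05g009370 at 131.1 ± 26.2 and Solyc05g009390 at 22.5 ± 7.50. LATERAL SUPPRESSOR lies between Solyc07g066240 at 14.6 ± 5.65 and Solyc07g066260 at 55.4 ± 4.74. CLAUSA lies between Solyc04g008470 at 3.54 ± 4.45 and Solyc04g008490 at 190.5 ± 22.3. BLIND would lie between Solyc11g069010 and Solyc11g069040, both listed, at 22.7 ± 0.111 and 78.4 ± 8.59. The table lists 31 loci that are at 0 in every library, so a locus can have a row without a value above 0. Such a 0 may stand for 0 or 1 read. Why BLIND has no row was not tested.

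Other regulators of leaf development were taken as 14 loci recorded from general knowledge of tomato locus numbers, and the files and the reference table do not pair these loci with names. Of the 14, 11 were in the table, 5 of them detected and 3 above the median locus. Over all listed loci the detected share was larger, at 68.7%. Their means ran from 4.36 to 959.6 with a median of 14.3, so CLAUSA, GOBLET and LYRATE lay above that median and LATERAL SUPPRESSOR and POTATO LEAF below the lowest. As a check of the tissue, 3 loci recorded under the Rubisco small subunit, the abundant photosynthetic protein of green leaves, were all detected, with means from 2364 to 5637. Of 4 loci recorded under ripening fruit, 3 were in the table and 0 were detected, and their summed level was 14.2 to 21.8 per library. None of the 2 loci recorded under the shoot meristem centre or the 4 under floral organs was in the table used here, so those tissues were not checked. The summed Rubisco loci stood at 10566, 7292 and 13724 scaled units in replicates 1, 2 and 3, highest in the library where GOBLET was lowest and CLAUSA and LYRATE were highest; their part in these differences was not tested.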

How the data were processed

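RNA was measured in 3 libraries of slmp-1 leaf primordia, 1 group. The submitters' processing notes list Bowtie2, HTSeq and DESeq2; their versions, the build and the annotation are not given in the sources used. The authors deposited signal values that are whole multiples of 1 step per library, within 0.001 of a step (0.948, 1.04 and 1.08 in replicates 1, 2 and 3). The 3 summary rows of the counting program (reads without a locus, ambiguous, low alignment quality) were left out; in replicate 1, for example, they took 22.6%, 2.43% and 25.6% of the scaled total.

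Levels are means and SDs of deposited values. Spread is the SD of log2(value + 1); a fold on this scale understates differences of low genes. Like level means a mean within 1.5-fold and detection in each library. Exact Poisson intervals at 95% were put on steps. With 1 group no test between conditions was possible, and none between genes was run. Members and lists were chosen with earlier results of these data known. The genes named are the 6 of the rule, the closest gene among them and adjacent loci. The RefSeq table of assembly SLM_r2.1 pairs 0 of the locus identifiers; it holds 3 of the 6 names (GOBLET, LYRATE, LATERAL SUPPRESSOR), and the names used for the identifiers are those that came with the rule. Alternatives were 2 other scalings, leaving out each replicate, other detection minimums and pseudocounts. Software was SciPy 1.17.1, pandas 2.3.3, numpy 2.4.6 and matplotlib 3.10.9 under Python 3.11.15.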

Additional observations from a re-analysis of the deposited data

Results flagged for a closer look

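Reads that HTSeq assigned to no feature lie outside the levels of the 5 genes. Their share of all listed signal was between 21.2% and 22.7% per library, and how many of them come from the genes described was not tested. With 3 libraries, no search for a single outlying library was made.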

How the results depend on the processing

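Across 66 values recomputed under another setting, 63 stayed within the spread between libraries or within 1.5 times of a count or spread, and 3 moved. Part of this was fixed in advance. Leaving out 1 of 3 libraries cannot move a mean by more than the SD over the 3 libraries. Taking a listed 0 as 1 step cannot change a gene without a listed 0. The rule for counts also scored a change from 3 to 2 as staying. This covers the overlapping pairs without replicate 2 and the genes above the median of detected loci. The mean of POTATO LEAF, 1.08 over all libraries, was scored as staying at 0 without replicate 3. Without replicate 3 the median SD of the detected genes fell to 0.12 (range 0.12 to 0.33 when each replicate was left out, 0.24 over all libraries), and the neighbouring pairs with overlapping ranges fell to 1 (range 1 to 3, against 3 over all libraries); leaving out a library can only narrow a range. With a detection minimum of 5, 8 of the 11 other leaf-development loci were detected in place of 5, which a lower minimum allows by construction. Means without each replicate ran from 65.1 to 82.9 for GOBLET, 40.2 to 47.7 for LYRATE, 88.2 to 102.6 for CLAUSA, 2.03 to 2.64 for LATERAL SUPPRESSOR and 0 to 1.62 for POTATO LEAF, which is listed above 0 in replicate 3 alone. The number of detected genes was 3 under both other scalings, both other minimums and each replicate left out. Against the median of detected loci, 2 of the 5 genes were above in place of 3, as LYRATE lay above 38.3% of detected loci. The alternatives that took a listed 0 as 1 step, detection as any value above 0, and the SD of each gene without each replicate were chosen after seeing the data. No paired analysis was possible because no second group shares the replicate numbers; differences between genes are given within libraries. Depth limits LATERAL SUPPRESSOR and POTATO LEAF, which lie at or below the worth of 3 reads in each library.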
